A study of Mus musculus with 20 samples.

Results

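Samples labelled as fat cells that lack Olfm2, from gonadal and subcutaneous fat, were compared on 10 of the 20 arrays of the series. Of these, 5 were titled g and KO and 5 sc and KO. The arrays were chosen by the depot and genotype in their titles and not by a measured value. The comparison itself was chosen with earlier results of these data known. The labels describe every sample as adipocytes that came from mouse fat tissue and were differentiated in vitro, and give the knockout as one of Olfm2. The depots are written only as g and sc, which are taken here as gonadal and subcutaneous. The other 10 arrays, 5 from each depot of wild-type mice, served to ask which depot differences were also measured in wild type. Every number in the titles occurs in both depots, with the same genotype each time. Whether a shared number means a shared mouse is not stated. The depots were compared as unpaired groups unless a fit with the number is named. The labels state neither strain, sex, age nor diet, nor how the knockout was made, nor whether arrays of a group came from separate mice or cultures, so p-values here measure only the spread between these samples, which may be technical. The design text of the series names PKP2 beside sc, while the label of each sc knockout sample gives Olfm2, and the labels were used.

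Olfm2 encodes olfactomedin 2, a secreted glycoprotein with an olfactomedin domain. Gonadal fat lies inside the abdominal cavity, is covered by a mesothelium and carries many macrophages in obesity, whereas subcutaneous fat lies under the skin and has no mesothelial cover. Fat cells of the depots come from different embryonic precursors and keep different sets of developmental transcription factors, among them HOX genes, Tbx15 and Shox2 in subcutaneous fat and Wt1 and Tcf21 in visceral fat. Such genes are known to stay depot-specific in cultured precursors.

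All values are log2 RMA signals, on which a difference of 1 is a 2-fold change. Differences are g minus sc with their standard errors (SE), and genes are called when the limma adjusted p is under 0.05. Values of 5 arrays are given in the order g300, g306, g317, g318 and g320, and likewise sc300 to sc320. The Olfm2 probe read 3.49, 2.98, 3.58, 2.67 and 3.36 on the sc knockout arrays and 3.43, 3.61, 3.36, 3.56 and 3.72 on the g knockout arrays. All 10 lay below the median of the negative control probes, which was 4.45 to 4.84 on the 20 arrays, and below the wild-type arrays, which read 4.08 to 4.6 in g and 4.28 to 5.25 in sc. The wild-type g arrays were thus near the level of the negative controls as well. The groups overlapped, with a difference of 0.32 (SE 0.19, exact two-sided permutation p = 0.135), so the signal of the targeted gene was low in both depots. Where the probe lies relative to the deleted part is not stated.

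Fat cell markers were high on all knockout arrays. The mean of 32 mature adipocyte genes was 10.56 to 10.71 in g and 10.75 to 10.92 in sc, and Fabp4, the fatty acid carrier of fat cells, read 12.47 to 13.01. Liver transcripts were present on part of the arrays. The mean of 21 hepatocyte genes was 9.82, 5.43, 5.37, 7.73 and 6.12 on the sc knockout arrays and 5.67, 9.67, 10.37, 7.64 and 9.22 on the g knockout arrays. With a limit of 7, 2 of 5 sc and 4 of 5 g knockout arrays were liver-high, as were 2 wild-type g arrays. Alb, the main plasma protein made by hepatocytes, read 12.35, 8.06, 8.65, 10.83 and 9.22 in sc and 7.81, 12.21, 12.12, 10.62 and 11.67 in g. Fgg, a fibrinogen chain, read 9.78, 4.31, 3.53, 7.39 and 5.43 in sc and 4.69, 9.12, 10.29, 7.39 and 9.07 in g. None of the 21 hepatocyte genes was called by limma between the depots (3 had an unadjusted p under 0.05), but all 21 differences were above 0, with a median of 1.56. The sc317 and sc320 knockout arrays had high means of 19 lymphocyte genes (8.42 and 8.18, against 5.39 to 6.05 on the other 8 knockout arrays) and of 22 skeletal muscle genes (7.63 and 7.18, against 5.51 to 6.06). Muscle means of the wild-type sc286 and sc307 arrays were 10.72 and 8.72, against 5.65 to 5.98 on the other wild-type sc arrays. In bulk RNA, fewer cells of a type and less RNA per cell cannot be told apart. Liver, lymphocyte and muscle genes, and the macrophage, mesothelial and Schwann cell genes below, are not markers of fat cells. Whether the samples held other cells beside the labelled adipocytes was not tested. Depot differences of these lists are therefore not shown to be traits of fat cells.

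**Figure D1:**
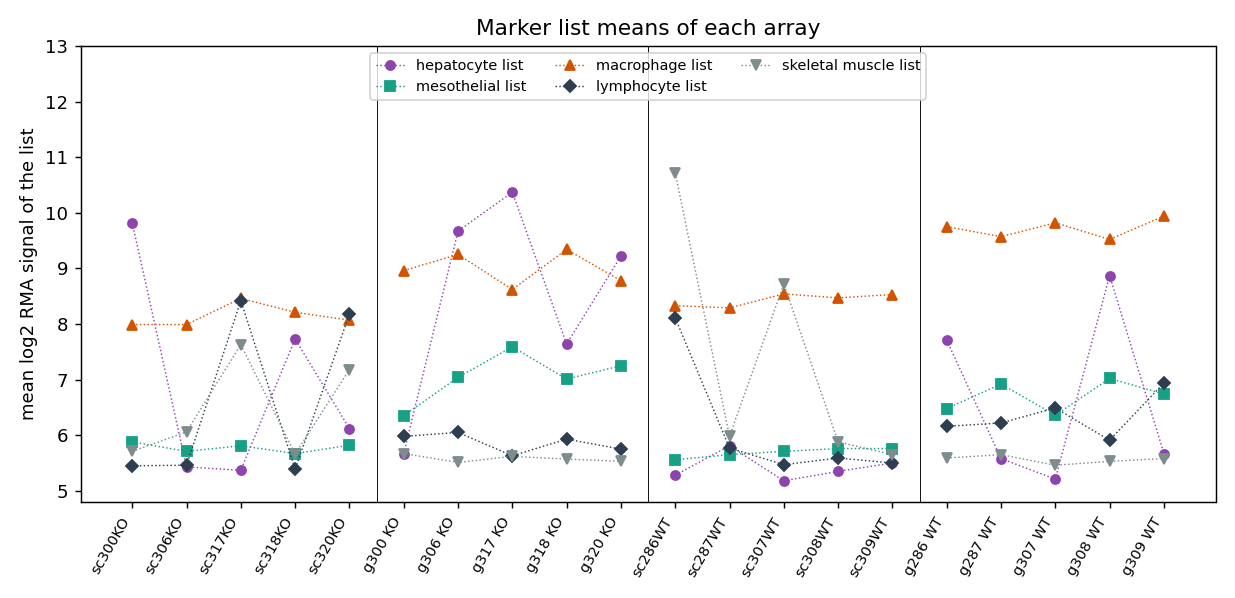
Mean log2 RMA signal of 5 marker gene lists (y axis) on each of the 20 arrays (x axis), with vertical lines between the groups; every point is 1 array and 1 list. Hepatocyte means reach 10.37 in knockout g and 9.82 in knockout sc and overlap between the depots, while the mesothelial means of the g knockout arrays, from 6.35 to 7.59, lie above those of the sc knockout arrays, from 5.67 to 5.88.

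Between the knockout depots 806 of 19505 genes were called, which is 4.13% of the genes tested. Of these, 559 (2.87%) were higher in g and 247 (1.27%) were lower, so that 69.4% of the calls were higher in g. More than 1 log2 unit separated the depots for 159 of the genes that rose and 30 of those that fell. The median difference over all genes was -0.02. The 5 g and 5 sc arrays did not overlap for 831 genes (4.26%), 451 higher in g (2.31%) and 380 lower in g (1.95%). The count rests on the shared spread of all 20 arrays: with the 10 knockout arrays alone 311 genes were called. Without the g306 array 537 genes were called and without the sc320 array 530.

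The largest rises in g were uroplakins of the mesothelium, Upk3b and Upk1b, and the largest falls were Shox2, a homeobox gene of limb development, and the T-box gene Tbx15. Upk3b read 5.29, 4.97, 4.66, 4.85 and 4.68 in sc and 7.64, 9.36, 10.37, 9.26 and 9.53 in g, a difference of 4.34 (SE 0.36, limma adjusted p = 4.98e-07). Shox2 read 6.22, 6.78, 5.71, 6.61 and 5.81 in sc and 3.86, 3.45, 3.41, 3.46 and 3.89 in g, a difference of -2.61 (SE 0.19, limma adjusted p = 6.98e-08). Neither gene overlapped between the depots, and the Shox2 signal in g lay below the negative control median. Orm3, an orosomucoid of the acute phase response, read 5.53, 5.0, 5.80, 5.40 and 5.22 in sc and 6.65, 6.47, 7.25, 6.66 and 6.54 in g. It was not called between the wild-type depots, where all 10 arrays lay below the negative controls.

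The sequences before the start sites of these 3 genes are shown because they carry the largest rise, the largest fall and a depot difference that was called different between the genotypes. Each is the 250 bases upstream of the start in the RefSeq table of build GRCm38.p6, written 5′ to 3′: Upk3b at chr5:136038246-136038495 on the plus strand, Shox2 at chr3:66981772-66982021 on the minus strand and Orm3 at chr4:63355908-63356157 on the plus strand. Capitals mark the GC box GGGCGG, the TATA box TATAAA and the CCAAT box CCAAT on either strand, which do not overlap each other in these windows.
Upk3b: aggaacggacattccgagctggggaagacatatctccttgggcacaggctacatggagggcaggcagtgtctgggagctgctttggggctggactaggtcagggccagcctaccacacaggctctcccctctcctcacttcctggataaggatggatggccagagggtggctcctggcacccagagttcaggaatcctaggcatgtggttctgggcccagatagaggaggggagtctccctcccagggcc
Shox2: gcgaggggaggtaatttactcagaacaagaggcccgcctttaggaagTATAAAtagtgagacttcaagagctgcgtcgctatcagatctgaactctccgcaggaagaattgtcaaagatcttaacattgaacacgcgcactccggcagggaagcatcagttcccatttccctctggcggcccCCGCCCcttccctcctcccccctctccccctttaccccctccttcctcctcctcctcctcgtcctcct
Orm3: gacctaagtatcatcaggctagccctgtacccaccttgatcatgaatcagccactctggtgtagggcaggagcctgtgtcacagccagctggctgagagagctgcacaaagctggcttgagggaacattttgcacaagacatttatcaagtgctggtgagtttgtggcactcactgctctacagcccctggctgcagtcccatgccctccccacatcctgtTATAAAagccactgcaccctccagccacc
Upk3b has none of the 3 motifs and 2 CpG dinucleotides. Shox2 has 1 GC box, 1 TATA box and 11 CpG dinucleotides, against a median of 6 over all windows. Orm3 has 1 TATA box and 0 CpG dinucleotides. Of 32851 windows of this length 32.7% hold the GC box, 12.4% the TATA box and 33.8% the CCAAT box. A match describes the letters only.

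Other genes with large rises in g included the peptide precursor Penk and the collagen chain Col6a5. Penk, the precursor of the enkephalin peptides, read 7.10, 6.95, 7.81, 7.27 and 7.40 in sc and 9.48, 9.70, 10.11, 10.09 and 10.39 in g (difference 2.65, SE 0.16, limma adjusted p = 6.7e-09). Col6a5, a chain of type VI collagen, read 5.41, 5.78, 6.01, 5.42 and 6.07 in sc and 8.0, 8.39, 8.15, 8.57 and 8.72 in g (difference 2.63, SE 0.14, limma adjusted p = 5.64e-10). Both genes stood apart on every array with little spread within a depot. Lcn2, the siderophore-binding lipocalin of inflamed fat, rose by 2.65 (SE 0.43, limma adjusted p = 0.000962), and its 10.85 on the g320 array stood above 8.12 to 8.65 on the other g arrays. Hspb7, a small heat shock protein, rose by 2.43, Gpnmb, a membrane glycoprotein of lipid-laden macrophages, by 2.34, and Sfrp1, a secreted WNT antagonist, by 2.19. Pkhd1l1, Gpm6a and Nkain4 rose by 3.34, 2.67 and 2.51. In these 3 genes and in Upk3b and Upk1b the g300 array was the lowest g array, at 5.89 for Pkhd1l1 against 7.58 to 8.26 on the others. That array was also the only g knockout array with a low hepatocyte mean.

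**Figure D2:**
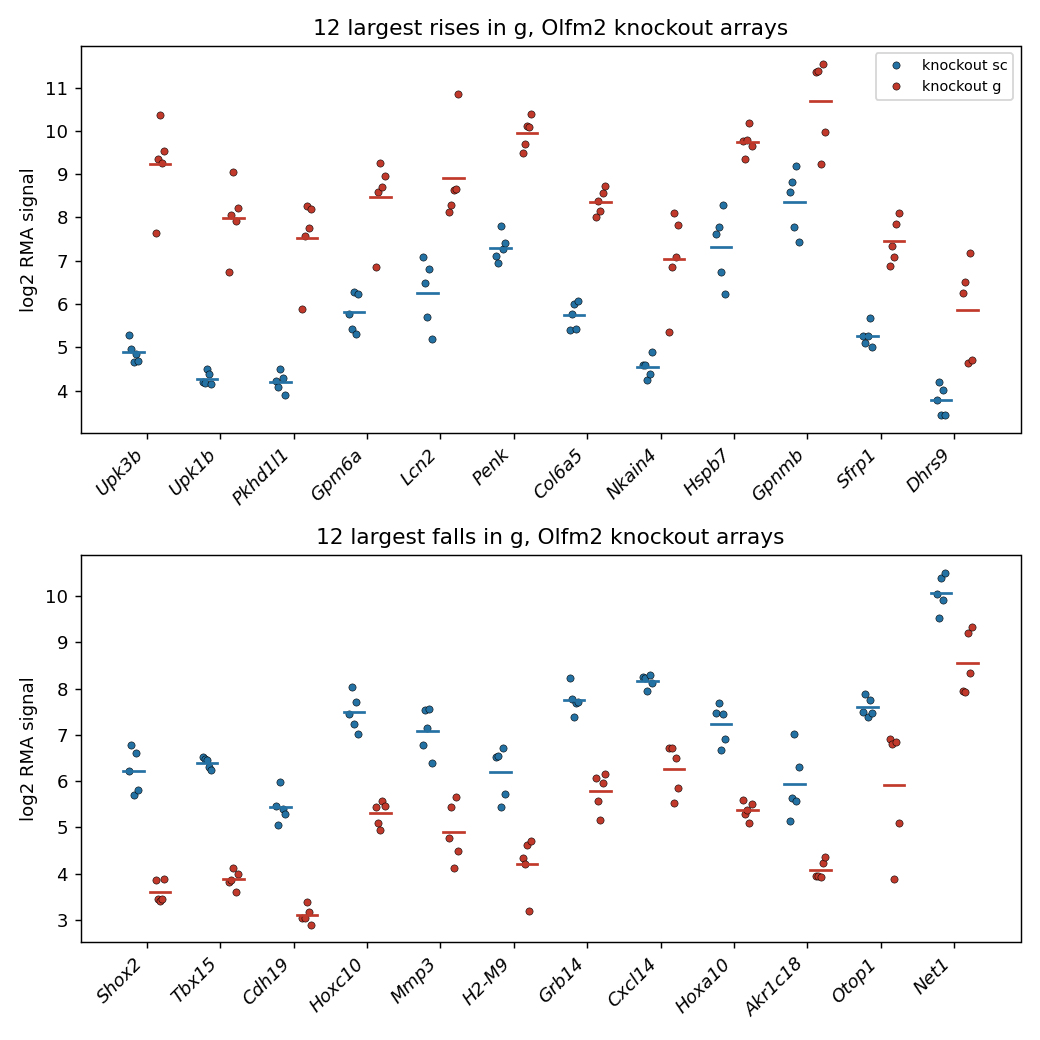
Log2 RMA signal (y axis) of the 12 genes with the largest rise (top) and the 12 with the largest fall (bottom) in g among called genes whose knockout arrays do not overlap; points are single arrays and bars are group means of 5. The gap is widest for Upk3b (4.34) among the rises and for Shox2 (-2.61) among the falls, and g arrays spread widely for Otop1 and Dhrs9.

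The genes with the largest falls in g after Shox2 were Tbx15 and Cdh19. Tbx15 read 6.52, 6.48, 6.45, 6.30 and 6.24 in sc and 3.81, 3.86, 4.12, 3.60 and 4.0 in g (difference -2.52, SE 0.30, limma adjusted p = 3.5e-05). Its SE includes the spread of the wild-type arrays, where sc286 read 8.66 against 6.21 to 6.72 on the other sc arrays. Cdh19, a cadherin of Schwann cells, read 5.47, 5.05, 5.98, 5.39 and 5.30 in sc and 3.05, 3.05, 3.38, 3.17 and 2.90 in g (difference -2.33, SE 0.15, limma adjusted p = 1.52e-08). For Tbx15 and Cdh19 the g arrays lay below the negative controls. Mmp3, the stromelysin that cuts matrix proteins, fell by 2.18 on the log2 scale (SE 0.32). Grb14, an adaptor that restrains the insulin receptor, fell by 1.98 (SE 0.19), the chemokine Cxcl14 by 1.91 (SE 0.19) and Akr1c18, a reductase that inactivates progesterone, by 1.85 (SE 0.29). H2-M9, a class Ib histocompatibility gene that shares sequence with related family members, fell by 1.98, and Net1, a RhoA exchange factor, by 1.52. Otop1, a proton channel found in brown fat, fell by 1.69 (SE 0.41, limma adjusted p = 0.0209), with 3.89 on g317 and 5.09 on g320 against 6.81 to 6.92 on the other g arrays. Its call was lost without g320 (-1.49, adjusted p = 0.0555) and with the hepatocyte mean as a covariate (-1.41, adjusted p = 0.0706).

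Among developmental transcription factors some genes differed strongly between the depots and most were not called. Of 33 HOX genes measured, 2 rose in g, 4 fell and 27 were not called, with a median of 0.03, where 4.13% of all genes were called. At an unadjusted p under 0.05, 3 HOX genes were higher and 4 lower, against 8.48% and 8.64% of all genes. Hoxc10 read 7.46, 8.04, 7.23, 7.71 and 7.02 in sc and 5.45, 5.09, 4.94, 5.57 and 5.47 in g (difference -2.19, SE 0.18, limma adjusted p = 4.98e-07). Hoxa10 read 7.48, 7.69, 6.68, 7.45 and 6.91 in sc and 5.60, 5.30, 5.38, 5.09 and 5.50 in g (difference -1.87, SE 0.18, limma adjusted p = 2.95e-06). These posterior HOX genes, which specify trunk and limb position in the embryo, were separated on all arrays, and their wild-type differences were -2.54 and -1.94. The other HOX falls were small, -0.33 for Hoxb8 and -0.61 for Hoxc9. Hoxc4 rose by 0.77 (SE 0.16, limma adjusted p = 0.00643) and Hoxd8 by 0.54 (SE 0.14, limma adjusted p = 0.0329). In wild type Hoxc4 differed by -0.08 and Hoxd8 by 0.21, neither called, and neither gene was called for the difference between genotypes (adjusted p = 0.149 and 0.502). Calls were lost on leaving out g306 for Hoxb8 (adjusted p = 0.05), in 8 of 10 fits without 1 knockout array for Hoxc9 (all but g320 and sc317, adjusted p 0.0712 to 0.13) and in 6 of 10 for Hoxd8 (g306, g318, g320, sc300, sc317 and sc320, adjusted p 0.0527 to 0.084).

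**Figure D3:**
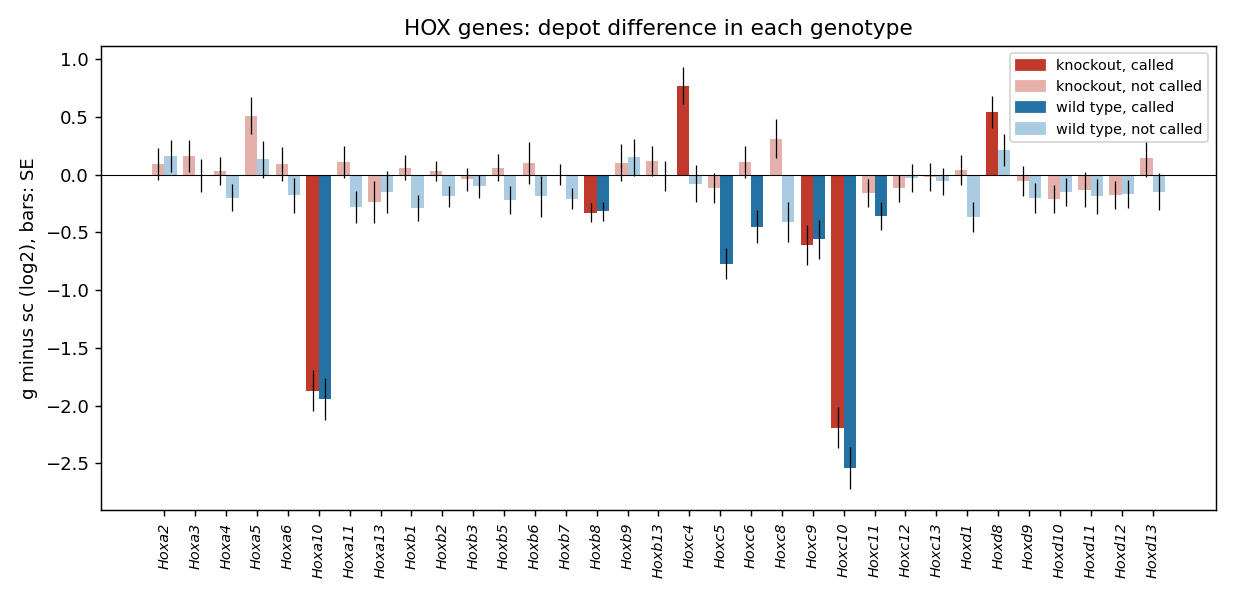
Depot difference (g minus sc, log2, y axis) of the 33 measured HOX genes (x axis) in knockouts (red) and wild type (blue); dark bars were called, pale bars were not, and lines are the SE of the fit over 5 against 5 arrays. Hoxa10 (-1.87 in knockouts, -1.94 in wild type) and Hoxc10 (-2.19, -2.54) are low in g in both genotypes, and 27 of the 33 genes were not called in knockouts.

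Of 50 other patterning factors 7 rose in g and 6 fell, against 2.87% and 1.27% of all genes, with a median of -0.06. At an unadjusted p under 0.05, 12 of the 50 were higher and 14 lower, against 8.48% and 8.64% of all genes. The rises included Tcf21, a basic helix-loop-helix factor of visceral mesenchyme, which read 4.41, 4.72, 4.44, 4.46 and 4.52 in sc and 6.10, 5.92, 6.31, 7.08 and 6.62 in g (difference 1.89, SE 0.16, limma adjusted p = 4.98e-07). Wt1, the Wilms tumour zinc finger factor of mesothelium and visceral fat precursors, read 5.30, 5.17, 5.13, 5.12 and 5.17 in sc and 5.99, 6.30, 7.08, 6.48 and 6.77 in g (difference 1.35, SE 0.19). Neither gene overlapped between depots, and the wild-type differences were 1.92 and 1.73. Osr1, Isl1 and Meis1, factors of intermediate and lateral mesoderm chosen here after their values were seen, rose by 1.52, 0.90 and 0.68. Lhx8, a LIM homeobox factor linked to brown fat, fell by 0.86 on the log2 scale (SE 0.13, limma adjusted p = 0.00052). Of the 13 factors called, 5 of the 7 rises and all 6 falls were called again with the hepatocyte mean as a covariate. Without the liver-high arrays 1 of the 50 was called higher and 1 lower, with a median of 0.01.

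Mesothelial genes were higher in g. Of 22 mesothelial genes 15 rose and 1 fell, with a median of 1.11, against 2.87% and 1.27% of all genes. Between the depots 11 of the 22 did not overlap, against 4.26% of all genes. The mean of the list was 6.35, 7.04, 7.59, 7.01 and 7.25 on the g arrays and 5.67 to 5.88 on the sc arrays. Lrrn4, a leucine-rich repeat protein of mesothelium, rose by 1.65 (SE 0.22, limma adjusted p = 0.000145), Msln, the mesothelial surface protein mesothelin, by 1.49 (SE 0.26) and Krt19, an epithelial keratin, by 1.52 (SE 0.33). Rspo1, a WNT-enhancing R-spondin, rose by 1.49 and Aldh1a2, which makes retinoic acid, by 1.77. Sbspon, a somatomedin B and thrombospondin domain protein, was the member that fell (-0.51, limma adjusted p = 0.0376), and its call was lost in 8 of 10 fits without 1 knockout array (all but g320 and sc317, adjusted p 0.0547 to 0.102). Msln, Krt19 and Sbspon were chosen after their values were seen. With the hepatocyte mean as a covariate 12 rose and 1 fell, with a median of 0.95. Without the liver-high arrays, which leaves g300 against 3 sc arrays, 3 rose and the median was 0.44, and Krt19 was at -0.01. On g300 both the hepatocyte mean (5.67) and the mesothelial mean (6.35) were the lowest of the g arrays, and the part of liver RNA in the mesothelial difference was not tested.

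Macrophage genes were also higher in g. Of 24 macrophage genes 17 rose and none fell, where 2.87% of all genes rose, all 24 differences were above 0 and the median was 0.88. The list mean was 8.96, 9.25, 8.62, 9.34 and 8.78 in g and 7.99, 7.99, 8.46, 8.21 and 8.07 in sc, with no overlap. Itgam, the integrin chain CD11b of myeloid cells, rose by 1.53 (SE 0.17, limma adjusted p = 1.51e-05). C1qb and C1qc, chains of the first complement component that macrophages make, rose by 1.11 and 1.17, and Csf1r, the receptor for macrophage colony-stimulating factor, by 0.81. Mrc1, the mannose receptor of resident macrophages (chosen after its values were seen), rose by 0.78, and the chemokines Ccl9 and Ccl6 by 1.52 and 1.06. With the hepatocyte mean as a covariate 19 of the 24 rose, with a median of 0.99. Without the liver-high arrays 3 rose, with a median of 0.89. In wild type 20 of 24 rose with a median of 1.51. For 11 of 24 genes the difference between genotypes had an unadjusted p under 0.05, against 2537 of all 19505 genes (13%), and 0 were called after adjustment.

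Lipid-associated macrophages are the cells that take up lipid in obese fat. Of 18 of their genes 8 rose and none fell in g, against 2.87% and 1.27% of all genes, with a median of 0.53. Trem2, their lipid receptor, read 6.91, 7.13, 6.11, 7.32 and 6.62 in sc and 9.05, 9.47, 7.24, 9.77 and 7.72 in g (difference 1.83, SE 0.37, limma adjusted p = 0.00618). Mmp12, macrophage elastase, read 8.93, 10.31, 6.55, 10.16 and 6.30 in sc and 12.05, 12.41, 10.27, 12.46 and 11.08 in g (difference 3.20, SE 0.62, limma adjusted p = 0.00416). Atp6v0d2, a proton pump subunit of lysosomes, read 6.64, 7.29, 3.88, 7.85 and 4.58 in sc and 10.00, 10.41, 7.01, 10.42 and 8.02 in g (difference 3.12, SE 0.68). The arrays of these 3 genes overlapped between depots, with sc317 and sc320 the lowest sc arrays and g317 and g320 the lowest g arrays. The same 4 arrays were lowest in their depots for 7 of the 8 genes that rose, Gpnmb, Lipa and Dcstamp included. The sc317 and sc320 arrays are also those with the high lymphocyte and muscle means, while g317 and g320 had low lymphocyte means of 5.63 and 5.75. Without sc317, sc320 and the lymphocyte-high wild-type array 3 of the 18 genes were called higher, while the median of the list was 0.59. In wild type 12 of the 18 rose and 1 fell, against 9.3% and 8.48% of all genes, with a median of 1.27.

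The macrophage list mean differed between all g and all sc knockout arrays, so that macrophage signal and depot cannot be told apart. A fit that held that mean as a covariate gave 77 calls in place of 806, and 49 of them belonged to the 806. Of the 24 genes with the largest changes among called genes without overlap between knockout arrays, Upk3b, Upk1b, Pkhd1l1, Lcn2, Penk, Col6a5, Nkain4, Hspb7, Shox2, Cdh19, Hoxc10, Mmp3, Grb14, Cxcl14 and Otop1 were still called. Gpm6a (3.16), Gpnmb (0.92), Sfrp1 (1.94), Dhrs9 (0.20), Tbx15 (-1.91), H2-M9 (-1.01), Hoxa10 (-1.21), Akr1c18 (-2.34) and Net1 (-0.94) were not. Of these, the differences of Gpm6a and Akr1c18 lay farther from 0 than without the covariate and those of the other 7 nearer to 0, Dhrs9 by the most. Mmp12 and Atp6v0d2, whose arrays overlap, rose by 3.2 and 3.12 in the main fit and were not called with this covariate either.

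Genes of Schwann cells, which wrap nerve fibres, were lower in g. Of 17 measured, none rose and 8 fell, with a median of -0.34, and 7 did not overlap between depots. Over all genes 1.27% fell and 4.26% did not overlap. Mbp, the basic protein of myelin, read 8.20, 7.47, 7.80, 7.92 and 7.08 in sc and 6.19, 6.16, 5.90, 6.26 and 6.41 in g (difference -1.51, SE 0.15, limma adjusted p = 4.54e-06). Its wild-type difference was -1.12. Cldn19, a tight junction protein of myelin loops, fell by 0.86, the myelin protein Mal by 0.60, the gap junction protein Gjc3 by 0.56, Drp2, of the dystroglycan complex of Schwann cells, by 0.58, the lineage factor Sox10 by 0.48 and the lipid carrier Pmp2 by 0.34. The knockout means of Gjc3 and Pmp2 lay below the negative control median in both depots. All 8 genes that fell were called again with the hepatocyte mean as a covariate. Without the liver-high arrays 3 were called, with a median of -0.36 over the list. Leaving out 1 knockout array ended the call in 3 fits for Sox10 (g306, g318 and sc300, adjusted p 0.0517 to 0.0685), in 7 for Drp2 (all but g320, sc306 and sc320, adjusted p 0.0578 to 0.101) and in 7 for Pmp2 (all but g317, sc306 and sc317, adjusted p 0.0517 to 0.108).

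Matrix genes moved in both directions. Of 43 collagens and matrix proteins 6 rose and 2 fell, against 2.87% and 1.27% of all genes, with a median of 0.01. Fmod, a small proteoglycan that binds collagen fibrils, rose by 2.00 (SE 0.27, limma adjusted p = 0.000187), Mgp, an inhibitor of calcification, by 1.35 and Fn1, fibronectin, by 0.99. Dpt, dermatopontin, read 11.60, 11.82, 11.71, 11.40 and 11.81 in sc and 10.37, 10.70, 10.49, 10.53 and 10.80 in g (difference -1.09, SE 0.11, limma adjusted p = 2.95e-06), with no overlap at a high signal. The type VI collagen chains named here differed in direction. Col6a3, the chain whose fragment is endotrophin, fell by 0.70 on the log2 scale (SE 0.16, limma adjusted p = 0.014). Col6a5 rose by 2.63 and Col6a6 (chosen after its values were seen) by 1.79. Col6a5 and Col6a6 are not among the 43 genes counted above, and other type VI chains are not given. The Col6a3 call was lost with the hepatocyte mean as a covariate (-0.59, adjusted p = 0.0504). Of 25 matrix proteases and inhibitors 6 rose and 1 fell, against the same 2.87% and 1.27% of all genes. Timp2 and Timp1, inhibitors of matrix proteases, rose by 0.85 and 1.35, and Plau, urokinase, rose by 1.03, beside the rise of Mmp12 and the fall of Mmp3.

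Single genes of signalling and hormone metabolism were called in both directions, while the medians of their lists lay near 0 and 4.13% of all genes were called. In the WNT list of 33 genes 4 rose and 1 fell: the antagonist Sfrp1, the enhancer Rspo1, the ligand Wnt2b (1.44) and the receptor Ror1 (0.95) rose, and the antagonist Dkk2 fell by 0.88 on the log2 scale (list median -0.03). The knockout means of Dkk2 lay below the negative control median in both depots. Of 35 BMP and TGF-beta genes 5 rose and 1 fell, with a median of 0.05. Among them the ligand Tgfb3 rose by 0.61 and Gdf3, a ligand made by fat macrophages, by 1.32, and the ligand Bmp3 fell by 0.79 (limma adjusted p = 0.0392). The Bmp3 call was lost in 6 of 10 fits without 1 knockout array (g306, g317, g320, sc300, sc306 and sc318, adjusted p 0.063 to 0.0969). Of 30 steroid and retinoid enzymes 4 rose and 1 fell, with a median of -0.02. Aldh1a2 and Aldh1a3, which make retinoic acid, rose by 1.77 and 0.86, Dhrs9, a retinol dehydrogenase, by 2.08 and Sult1e1, which inactivates oestrogens, by 1.94, and Akr1c18 fell. Agt, the precursor of angiotensin made by liver and fat, read 8.10, 7.07, 7.63, 7.36 and 6.52 in sc and 9.12, 9.10, 10.02, 8.99 and 9.72 in g. Its difference of 2.06 (SE 0.25, limma adjusted p = 4.68e-05) was 1.78 with the hepatocyte mean as a covariate (adjusted p = 7.42e-05) and 2.05 without the liver-high arrays (adjusted p = 0.0211).

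Acute phase and complement genes, many of which the liver also makes, rose in part. Of 26 measured, 6 rose and none fell, against 2.87% and 1.27% of all genes, with a median of 0.43. Lcn2 rose by 2.65, Orm3 by 1.32, the complement component C7 by 1.21 and Orm2 by 0.76 (limma adjusted p = 0.0393). With the hepatocyte mean as a covariate Lcn2 (2.23), Orm3 (1.21) and C7 (1.13) were still called and Orm2 was not (0.66, adjusted p = 0.115). The Orm2 call was also lost in 6 of 10 fits without 1 knockout array (g300, g306, g317, g318, sc317 and sc320, adjusted p 0.0668 to 0.119). Orm2 and Orm3 are close copies, and how far their probes share signal was not tested.

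Most genes of the fat cell itself read slightly lower in knockout g, while single genes were called about as rarely as genes in general. Of 32 mature adipocyte genes none rose and 1 fell, with a median of -0.17, where 1.27% of all genes fell. Of the 32 differences 28 were below 0, against 53.3% over all genes, and 10 were lower at an unadjusted p under 0.05, against 8.64% of all genes. The list means of 10.56 to 10.71 in g and 10.75 to 10.92 in sc did not overlap. In wild type 26 of the 32 fell, with a median of -0.54, where 8.48% of all genes fell. The difference between genotypes was called for 1 of the 32, Retn, and had an unadjusted p under 0.05 for 17, against 13% of all genes. Cidea, a lipid droplet protein of brown and beige fat, was the knockout fall (-1.05, SE 0.18, limma adjusted p = 0.00173). Pparg, the master regulator of fat cells, differed by -0.26 in knockouts (not called) and fell by 0.58 on the log2 scale in wild type, and the lipid droplet coat gene Plin4 differed by -0.37 (not called) and fell by 0.74 in wild type. Neither was called for the difference between genotypes (adjusted p = 0.322 and 0.334).

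Each list of lipid and mitochondrial genes had 0 to 3 called genes in knockouts, where 1.27% of all genes fell, against 8.48% in wild type. Of 17 fatty acid synthesis genes limma called 0 in knockouts, with a median of 0.32 (5 higher and 1 lower at an unadjusted p under 0.05), against 1 rise and 5 falls in wild type, with a median of -0.28. Of 29 genes of triglyceride storage and lipolysis 1 fell in knockouts (9 at an unadjusted p under 0.05) and 21 in wild type. Of 23 fatty acid oxidation genes 3 fell in knockouts, Acadl (-0.45), Ppargc1a (-0.67) and Etfa (-0.33), and 17 in wild type. In knockouts 8 of the 23 were lower at an unadjusted p under 0.05, against 8.64% of all genes. Of 38 oxidative phosphorylation genes 2 fell in knockouts, Ndufv1 (-0.36) and Atp5b (-0.25), and 33 in wild type. In that list 36 of 38 differences were below 0 in knockouts, against 53.3% over all genes, with a median of -0.17. At an unadjusted p under 0.05, 17 of 38 were lower, against 8.64% of all genes. The difference between genotypes had an unadjusted p under 0.05 for 15 of the 38, against 13% of all genes. It did so for 9 of 17 fatty acid synthesis, 15 of 29 triglyceride and 6 of 23 fatty acid oxidation genes. None of these was called for it after adjustment. The Ppargc1a call was lost without g300, g306, g318, sc300, sc317 or sc320 (adjusted p 0.0582 to 0.0751), that of Etfa in all fits without 1 knockout array except g320 (0.053 to 0.127) and that of Atp5b in all 10 (0.0507 to 0.126). Of 27 brown and beige fat genes 1 rose, the creatine transporter Slc6a8 (0.77), and 4 fell, Lhx8, Otop1, Cidea and Ppargc1a, with a median of -0.30. Ucp1, the uncoupling protein of brown fat, read 4.33, 5.86, 6.93, 4.88 and 6.28 in sc and 4.17, 4.39, 4.09, 3.76 and 4.06 in g, a difference of -1.56 that was not called (limma adjusted p = 0.0611).

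Cell division and mast cell genes were called in knockouts about as rarely as all genes (2.87% higher), and more often in wild type, where 9.3% of all genes rose. Of 45 mitosis genes 1 rose in knockouts, Anln (0.56), with a median of 0.14, against 24 in wild type, with a median of 0.57. The Anln call was lost without g306, g318, sc317 or sc320 (adjusted p 0.0648 to 0.0864). Of 38 DNA replication genes limma called 0 in knockouts (1 higher and 1 lower at an unadjusted p under 0.05) and 15 rises and 1 fall in wild type. Of 15 mast cell genes 1 rose in knockouts, Hpgds, the prostaglandin D synthase that macrophages also make (1.64, SE 0.32, limma adjusted p = 0.00413), against 11 in wild type, with medians of 0.16 and 1.19. Cpa3, the carboxypeptidase of mast cell granules, differed by 0.87 in knockouts (adjusted p = 0.128) and rose by 2.80 in wild type, and the difference between genotypes was not called (-1.92, adjusted p = 0.104). For the difference between genotypes 13 of 45 mitosis, 14 of 38 DNA replication and 10 of 15 mast cell genes had an unadjusted p under 0.05, against 13% of all genes, and 0 were called. Among markers of other cell types limma called 0 of 19 lymphocyte, 0 of 22 skeletal muscle and 0 of 22 endothelial genes, with 0, 1 and 1 at an unadjusted p under 0.05.

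Most genes called between the knockout depots were also called in wild type. Of the 806 genes called in knockouts 608 were called in the same direction in wild type, 445 higher and 163 lower. That is 75.4% of the knockout calls and 17.5% of the wild-type calls, since wild type had 3468 calls (17.8%), 1814 higher in g (9.3%) and 1654 lower (8.48%). The contrasts share no array, but both use 1 spread per gene estimated from all 20 arrays, so their calls are not independent. Across all genes the depot differences of the genotypes correlated with Pearson's r = 0.634, over genes that are not independent replicates. The standard deviation of the differences was 0.306 in knockouts and 0.405 in wild type, and the median SD within a group was 0.206 and 0.194 in knockout g and sc and 0.167 and 0.18 in wild-type g and sc. A call missing in 1 genotype is not a difference between genotypes: of 197 genes called in knockouts and not in wild type 2 were called for the genotype difference, and of 2859 called in wild type and not in knockouts 10 were.

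**Figure D4:**
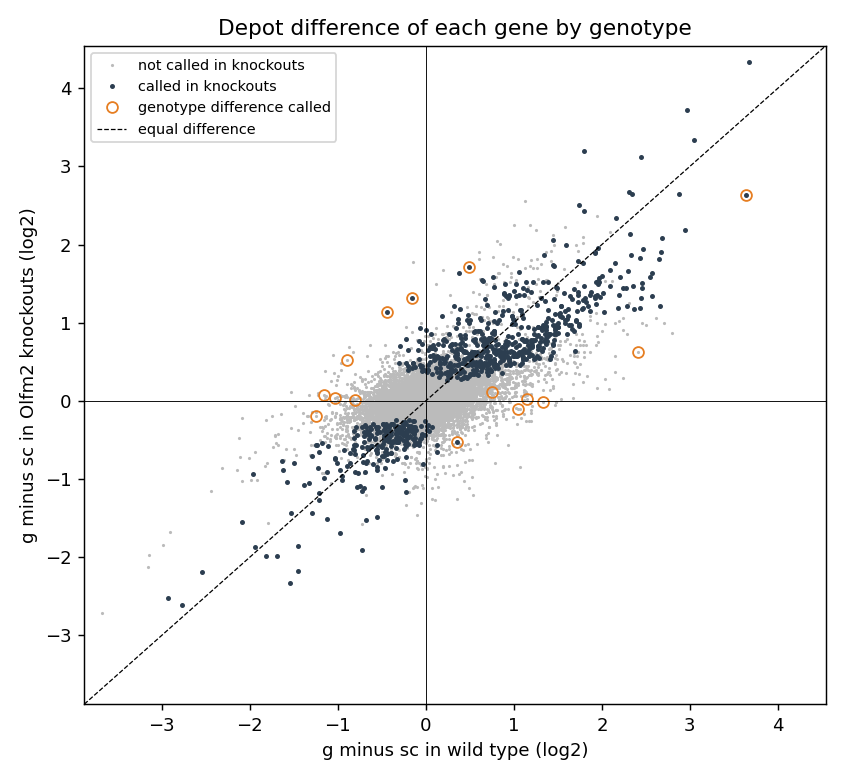
Depot difference (g minus sc, log2) of each of the 19505 genes in wild type (x axis) and in Olfm2 knockouts (y axis); dark points are the 806 genes called in knockouts, circles the 15 genes called for the difference between genotypes, and the dashed line marks equal differences. The cloud runs from lower left to upper right (r = 0.634), with Upk3b at the upper right and Shox2 and Tbx15 at the lower left.

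The depot difference itself was called different between the genotypes for 15 genes, 0.0769% of those tested, 8 with a larger and 7 with a smaller g minus sc value in knockouts. Of these 15, 5 were called between the knockout depots: Orm3, Cadps, Disp2, Col6a5 and Olfr1157. Orm3 rose by 1.32 in knockout g, while wild-type arrays of both depots read lower (mean 4.09 in sc and 3.93 in g), and the genotypes differed by 1.48 (SE 0.25, limma adjusted p = 0.0179). All 10 wild-type arrays of Orm3 (3.57 to 4.44) lay below the negative controls, so that its wild-type depot difference was measured at background. Cadps, a priming factor for dense-core vesicle release, read 4.42, 4.53, 4.16, 4.85 and 4.21 in knockout sc and 6.0, 6.0, 6.18, 6.42 and 6.09 in knockout g. Its difference of 1.71 stood against 0.49 in wild type, a gap of 1.22 (SE 0.20, limma adjusted p = 0.0179). The mean of the knockout sc arrays of Cadps lay below the negative controls. Its wild-type arrays (4.12 to 4.52 in sc and 4.35 to 5.02 in g) lay near them, so the size of its gap rests in part on background signal. Disp2, a dispatched-family transmembrane protein, rose by 1.14 in knockouts and differed by -0.44 in wild type (gap 1.58, SE 0.29). Its wild-type arrays (3.68 to 4.24 in g and 4.22 to 4.53 in sc) and the mean of its knockout sc arrays were at or below the level of the negative controls, so the size of the gap rests on background signal. Col6a5 rose in both genotypes, by 2.63 in knockouts and 3.64 in wild type (gap -1.02, SE 0.19, limma adjusted p = 0.0483). The genotype call was lost in 21 of 33 alternative fits for Col6a5, quantile normalisation (adjusted p = 0.053) and the hepatocyte covariate (0.0571) among them, in 17 of 32 for Disp2 and in 3 of 33 for Orm3, with adjusted p over all alternatives of 0.0233 to 0.466, 0.0233 to 0.432 and 0.00964 to 0.247. The olfactory receptor gene Olfr1157, named because it was the 1 gene called in opposite directions, differed by -0.53 in knockouts and 0.35 in wild type, at signals below the negative controls.

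The other 10 genes were called between the depots of wild type and not of knockouts. Klb, the co-receptor for FGF21, differed by 0.08 in knockouts and fell by 1.16 on the log2 scale in wild type (gap 1.24, SE 0.20, limma adjusted p = 0.0179). Retn, the fat cell hormone resistin, read 11.94, 12.33, 12.28, 12.11 and 12.10 in knockout sc and 11.87, 11.99, 11.99, 11.82 and 12.15 in knockout g, which overlap. Its wild-type means were 11.84 in sc and 10.59 in g, so that wild-type g was the low group (gap 1.06, SE 0.19, limma adjusted p = 0.0239). Hspb8, a small heat shock protein, and Mgl2, a lectin of macrophages and dendritic cells, had the same pattern (gaps 1.07 and 0.81), with the Mgl2 call lost in 18 of 33 alternative fits (adjusted p 0.0191 to 0.291 over all of them) and the Retn call in 12 of 33 (0.012 to 0.327). The growth factor Fgf9 differed by 0.52 in knockouts and -0.90 in wild type (gap 1.43). Myh15, a myosin heavy chain, Fat3, a protocadherin, Nfasc, a neural adhesion protein, Gpr176, an orphan receptor, and Gna13, a G protein subunit, rose in wild-type g by 2.41, 1.33, 1.05, 1.15 and 0.75. In knockouts these 5 genes differed by 0.63, -0.01, -0.10, 0.02 and 0.11, none called. The knockout means of Fat3 in both depots, and that of Myh15 in sc, lay below the negative control median. The wild-type sc arrays of Fat3 (4.24 to 4.61) and Myh15 (4.42 to 4.8) lay near it, so their differences rest in part on background signal. With the hepatocyte mean as a covariate 13 of the 15 genes were called again. Of the wild-type sc arrays, sc286 and sc307 had the high skeletal muscle means given above. The count moved with single wild-type arrays, to 4 without sc307, 24 without g308 and 41 without sc286, and it was 3 without the lymphocyte-high arrays and 1 without the liver-high arrays.

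**Figure D5:**
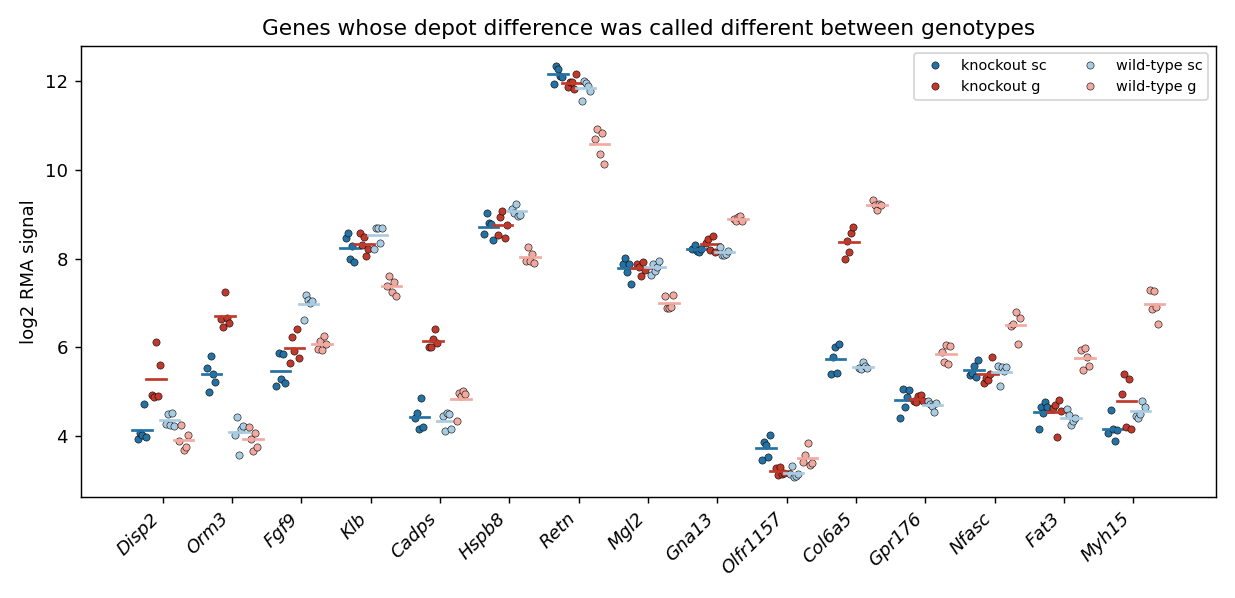
Log2 RMA signal (y axis) on each array for the 15 genes whose depot difference was called different between genotypes (x axis), with 4 groups of 5 arrays per gene and bars at the group means. Wild-type g stands apart from the other 3 groups for Retn (mean 10.59) and Klb (mean 7.37), and knockout g stands apart for Cadps (mean 6.14) and Orm3 (mean 6.71).

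Allowing for the liver-high arrays changed few directions and many calls. A fit that held the hepatocyte mean of each array as a covariate gave 677 calls, and 591 of them belonged to the 806. Among called genes without overlap, all 12 of the largest rises and 11 of the 12 largest falls were called again. Without the 8 liver-high arrays, which leaves the g300 array alone against 3 sc arrays in knockouts and assumes that it varies like the other groups, 118 genes were called and 105 were among the 806. Of the largest changes Upk3b (2.87), Upk1b (2.46), Lcn2 (2.33), Penk (2.09), Col6a5 (2.05), Hspb7 (2.87), Gpnmb (3.35), Sfrp1 (1.76) and Dhrs9 (2.57) were still called higher. Shox2 (-2.24), Cdh19 (-2.39), Hoxc10 (-1.98), Grb14 (-1.56), Cxcl14 (-1.39) and Net1 (-2.18) were still called lower. Pkhd1l1, Gpm6a and Nkain4 were not called there, at 1.74, 0.87 and 0.79, nor were Tbx15 (-2.58), Hoxa10 (-1.50), H2-M9 (-1.57), Mmp3 (-2.25), Akr1c18 (-2.36) and Otop1 (-0.66). Among the 6 liver-high knockout arrays alone, 4 of g and 2 of sc, 112 genes were called and 91 were among the 806. The sign of 800 of the 806 differences was the same without the liver-high arrays and among them alone, although these arrays also made the calls.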

How the data were processed

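Total RNA of 20 samples was labelled with a GeneChip kit and measured on expression arrays, per the labels' protocols. RMA and limma are named in the submitters' processing notes, so each deposited value was read as the authors' log2 RMA signal of a probe. Versions and array build: not given in the sources used here. Of 28846 probes 6640 controls and 2634 without a symbol were left out, and of 55 genes with several probes the brightest was kept, which left 19505 genes.

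A mean per group was fitted to all 20 arrays in R 4.3.3 with limma 3.58.1 (lmFit and eBayes, 16 residual degrees of freedom, no covariate), with Benjamini-Hochberg adjustment over all genes and two-sided p-values. The contrasts were g minus sc in knockouts, the same in wild type, and their difference. Tested on simulated data for the knockout contrast with 200 of 19505 genes changed, the fit recovered 74% at a fold of 1.5 and 87% at a fold of 2, with 10 false among 171 calls. The simulated noise was independent between genes, with the same spread in every group and no shared liver, lymphocyte or muscle signal. These rates therefore do not cover such signal on the real arrays.

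The arrays compared, the 47 gene lists, the limits for liver-high and lymphocyte-high arrays and the alternatives were chosen with earlier results of these data known. Named genes were Olfm2, the 12 largest rises and 12 largest falls among called genes with no overlap between knockout arrays, genes called for the genotype difference (the 5 largest each way, and 5 each way of those called in wild type and not in knockouts), and, for every list, its 4 members of smallest p together with all called members where these were at most 8. Names of the Gm, Rik, olfactory and vomeronasal kinds were passed over (27 called genes). Alb, Fgg, Osr1, Isl1, Meis1, Msln, Krt19, Sbspon, Mrc1, Col6a6, Ucp1 and Olfr1157 lie outside that rule and were chosen after their values were seen. The number of arrays limits the precision.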

Additional observations from a re-analysis of the deposited data

Results flagged for a closer look

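Of 236 checks of the 5 arrays of a knockout group, 18 found 1 array far from the other 4 by Dixon's test, and chance gives about 1 in 20 such results. In the g group, g300 was low for Pkhd1l1 (5.89, others 7.58 to 8.26), Gpm6a (6.85, others 8.59 to 9.26), Fmod (7.24, others 8.21 to 8.57) and Cpa3 (6.36, others 7.48 to 7.80). The g320 array was high for Lcn2 (10.85), Drp2 (5.20) and Etfa (10.61) and low for Orm2 (7.01). The g317 array was high for Orm3 (7.25) and Ror1 (7.04) and low for Fat3 (3.97). The g318 array was low for Atp5b (11.61) and for the mean of the mature adipocyte list (10.56, others 10.68 to 10.71). In the sc group, sc318 was high for Disp2 (4.72), sc300 for Wt1 (5.30), sc306 for Isl1 (5.69) and sc317 for Csf1r (9.44), the last on an array with a high lymphocyte mean, and sc320 was low for Hoxd8 (6.31, others 6.91 to 7.14).

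The depot difference was called different between the genotypes, by limma's test of the knockout minus the wild-type value, for Disp2 (1.58), Orm3 (1.48), Fgf9 (1.43), Klb (1.24), Cadps (1.22), Hspb8 (1.07), Retn (1.06) and Mgl2 (0.81), and in the other direction for Myh15 (-1.77), Fat3 (-1.35), Nfasc (-1.15), Gpr176 (-1.14), Col6a5 (-1.02), Olfr1157 (-0.88) and Gna13 (-0.64).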

How the results depend on the processing

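The 806 calls between the knockout depots became 311 with the knockout arrays alone, 118 without the liver-high arrays, 112 among the liver-high knockout arrays alone and 77 in the fit with the macrophage covariate, and 530 to 829 on leaving out 1 knockout array. The 15 calls for the genotype difference became 1 without the liver-high arrays, 1 with hepatocyte, lymphocyte and muscle means as covariates, 0 with the macrophage covariate (limma, 1368 genes at an unadjusted p under 0.05), 3 without the lymphocyte-high arrays, 30 with array weights, 28 with a trended robust variance and 4 to 41 on leaving out 1 array (4 without wild-type sc307, 24 without wild-type g308 and 41 without wild-type sc286). The leave-outs of wild-type arrays, the lymphocyte-high leave-out and the liver-high arrays alone were chosen after seeing the data. The cause of these changes was not tested, and some of these fits also had fewer arrays.

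Over all genes the sample numbers did not meet the rule for pairing the depots: residual correlations of same-numbered knockout arrays were -0.461 to 0.117, and 0 of 5 arrays correlated best with their own number. Liver and lymphocyte signal differed between arrays of the same number and enters these correlations. The hepatocyte mean was 9.82 on sc300 and 5.67 on g300, and the lymphocyte mean 8.42 on sc317 and 5.63 on g317. The correlations therefore cannot decide whether the numbers pair the depots, although every number in the titles occurs in both depots with the same genotype. The main fit and the permutation test of Olfm2 did not use the numbers. Their standard errors and p-values hold for unpaired depots only. As a replicate block, the number gave 321 knockout calls as a fixed term in the knockout arrays alone and, as a random term (consensus correlation 0.0863), 969 knockout calls and 32 for the genotype difference. For 7 of the 8 lipid-associated macrophage genes that rose, sc317, sc320, g317 and g320 were the lowest arrays of their depots. In the knockout arrays alone Trem2, Atp6v0d2, Lipa and Mmp12 were called with the number as a fixed term (adjusted p = 0.0165, 0.000468, 0.00702 and 0.0122) and not without it (0.0776, 0.116, 0.0603 and 0.0796).

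The direction turned for Krt19 without the liver-high arrays (-0.01) and, with the macrophage covariate, for Hoxc9 (0.15), Gdf3 (-0.01) and Hpgds (-0.29). Of 92 called genes followed singly, 78 stayed called in each fit without 1 knockout array. Quantile normalisation (873), median centring (759) and leaving out dim genes (844) moved the knockout count by less than 1.5 times. Differences of genes near the negative controls are limited by their low signal.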
